A study of Mus musculus with 7 samples.

Results

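The genes described here encode the proteins of the cytosolic ribosome. They were taken from the count table by symbol: a name of the form Rpl or Rps followed by a number and the usual suffixes, or Rpsa, Rplp0, Rplp1 or Rplp2, leaving out symbols marked as pseudogene copies and the Rps6k kinases. This gave 86 of 26130 genes, and all 86 passed the filter on low counts. Of these, 31 encode small subunit proteins, 43 encode large subunit proteins, 3 encode the stalk, and 7 are paralogues of a main gene (Rpl3l, Rpl7l1, Rpl10l, Rpl22l1, Rpl39l, Rps27l and Rps4l). The other 2, Rpl32l and Rpl6l, are processed pseudogenes in the GENCODE annotation, which also lists Rps4l as a transcribed pseudogene, so the name of the family does not strictly cover these 3.

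RNA came from lung cells of mice that carried both an Fth1-mScarlet reporter of ferritin heavy chain and a Lyz2GFP reporter of myeloid cells. Cells positive for Lyz2GFP, CD11b and Ly6C and negative for Ly6G, a gate for monocytes and cells derived from them, were sorted by low or high Fth1-mScarlet signal. Mice had received 20 µg of lipopolysaccharide (LPS, the outer membrane glycolipid of Gram-negative bacteria, here from E. coli 0111:B4) in 50 µl into the trachea 3 days earlier, or nothing. Untreated mice gave 2 libraries of Fth1-low cells, and LPS-treated mice gave 2 of Fth1-low and 3 of Fth1-high cells. All groups share both reporters and the sort, ages are not stated, and the labels do not say whether replicates were separate mice. The Y-linked gene Ddx3y, with values below, separates the 2 untreated libraries, and LPS Fth1-high replicate 3 from replicates 1 and 2. Those libraries therefore came from different mice. For the others this is not known, so the p-values measure the spread between libraries, which may in part be technical. In sorted bulk RNA, fewer cells of a type and less RNA per cell cannot be told apart.

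The ribosome consists of a small subunit that reads the messenger RNA and a large subunit that joins amino acids, and each of its proteins is needed in step with the others and with ribosomal RNA. Most ribosomal protein mRNAs begin with a run of pyrimidines called the 5′ terminal oligopyrimidine (TOP) motif, through which mTORC1 and the binding protein LARP1 control their translation. In macrophages, activation is known to shift which mRNAs are translated.

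The stretch around the transcription start is shown for members to which the results below return, since the TOP run is the feature these genes are known to share. Sequences are RefSeq starts on GRCm38.p6 (mm10), 15 bases before and 15 bases from the start onward, 5′ to 3′ on the gene's strand. Capitals mark each C followed by at least 5 further C or T, anywhere in the stretch, so a run need not be a TOP motif. Those of Rps27l and Rpl39l lie wholly before the annotated start. The first group of 3 was lower in LPS Fth1-high than in untreated cells and had a run. The next 3 are some of those that were lower and had none, without Rpl27 and Rps28, and the last 3 are paralogues.
Rps27, chr3:90213634-90213663, minus: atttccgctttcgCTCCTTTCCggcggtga
Rpl28, chr7:4792950-4792979, plus: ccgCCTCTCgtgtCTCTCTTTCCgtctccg
Rpl22l1, chr3:28805493-28805522, plus: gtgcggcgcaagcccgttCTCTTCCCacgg
Rpl10, chrX:74270801-74270830, plus: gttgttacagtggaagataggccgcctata
Rpl9, chr5:65391417-65391446, minus: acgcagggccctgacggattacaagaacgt
Rplp0, chr5:115559452-115559481, plus: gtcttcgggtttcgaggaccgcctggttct
Rps27l, chr9:66946071-66946100, plus: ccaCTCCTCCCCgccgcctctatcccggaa
Rpl10l, chr12:66284387-66284416, minus: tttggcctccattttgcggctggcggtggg
Rpl39l, chr16:10170213-10170242, plus: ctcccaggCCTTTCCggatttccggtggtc

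A run of this kind lay in the window of 37 of the 64 members with a RefSeq entry (57.8%), against 4538 of 17492 protein-coding genes (25.9%). On the opposite strand of the same windows the share was 9.38% for the members and 28.9% for protein-coding genes. Mitochondrial ribosomal protein genes, whose mRNAs serve another ribosome, had the run on the gene's strand in 20 of 69 (29.0%). Of the 11 members called lower in LPS Fth1-high than in untreated cells (below), 8 had a RefSeq entry and 3 of these a run. Whether that share differs from the 57.8% of members was not tested. A window without a match shows only that these letters are not there, and annotated starts can lie several bases from the starts a cell uses.

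Library depth ran from 637787 counts (LPS Fth1-low replicate 1) to 27997007 (LPS Fth1-high replicate 3). In the shallowest library 1 count stood for 1.67 CPM (counts divided by the library size, scaled by TMM), 85 members were detected and 11 had under 10 counts. Ribosomal RNA took 19.5% of counts in LPS Fth1-low replicate 1 and 8.42% in LPS Fth1-high replicate 1, and between 0.705% and 4.17% in the other 5 libraries. The nuclear RNAs Malat1 and Rn7sk were highest in the same 2 libraries, Malat1 at 1780 and 1471 CPM against 218 to 423 elsewhere and Rn7sk at 608 and 163 CPM against 9.72 to 33.4 elsewhere. Fth1 followed the gate, at 1672 and 1786 CPM in untreated Fth1-low, 2970 and 4825 in LPS Fth1-low and 13231 to 21000 in LPS Fth1-high libraries. The 10 sort and monocyte markers summed to between 13495 and 20172 CPM in every library, but not all followed the sum. Ccr2 was at 894 to 1545 CPM in Fth1-low and 148 to 360 in LPS Fth1-high libraries. Cx3cr1 was at 639 and 630 CPM in untreated, 114 and 272 in LPS Fth1-low and 88.5 to 121 in LPS Fth1-high libraries. Cd68 went the other way by gate, at 407 to 553 CPM in Fth1-low and 754 to 940 in LPS Fth1-high libraries. Ddx3y was at 97.9 and 0.186 CPM in untreated, 68.6 and 37.2 in LPS Fth1-low and 78.3, 68.8 and 1.66 in LPS Fth1-high libraries. Sex thus differed between libraries, and its part in the differences was not tested.

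Ribosomal protein mRNA took the smallest share of counts in the Fth1-high cells. The 86 genes held 1.81% and 1.28% of all counts in untreated Fth1-low replicates 1 and 2, and after LPS they held 1.47% and 1.38% in Fth1-low and 0.641%, 1.03% and 1.19% in Fth1-high replicates. Each Fth1-high library thus lay below all 4 Fth1-low libraries, although replicate 3 lay close to the lowest of those. Group means were 1.54% ± 0.377 (SD, n = 2), 1.42% ± 0.0638 (SD, n = 2) and 0.955% ± 0.284 (SD, n = 3). The widest 95% Wilson interval, in the shallowest library, ran from 1.437% to 1.496% and covers counting error only. Small subunit genes alone took 0.570% to 0.815% in the 4 Fth1-low libraries and 0.269% to 0.519% in the Fth1-high libraries, and large subunit genes 0.532% to 0.750% and 0.286% to 0.511%. With ribosomal RNA and mitochondrially encoded genes left out of the total, the group means were 1.64%, 1.65% and 1.01%.

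**Figure D1:**
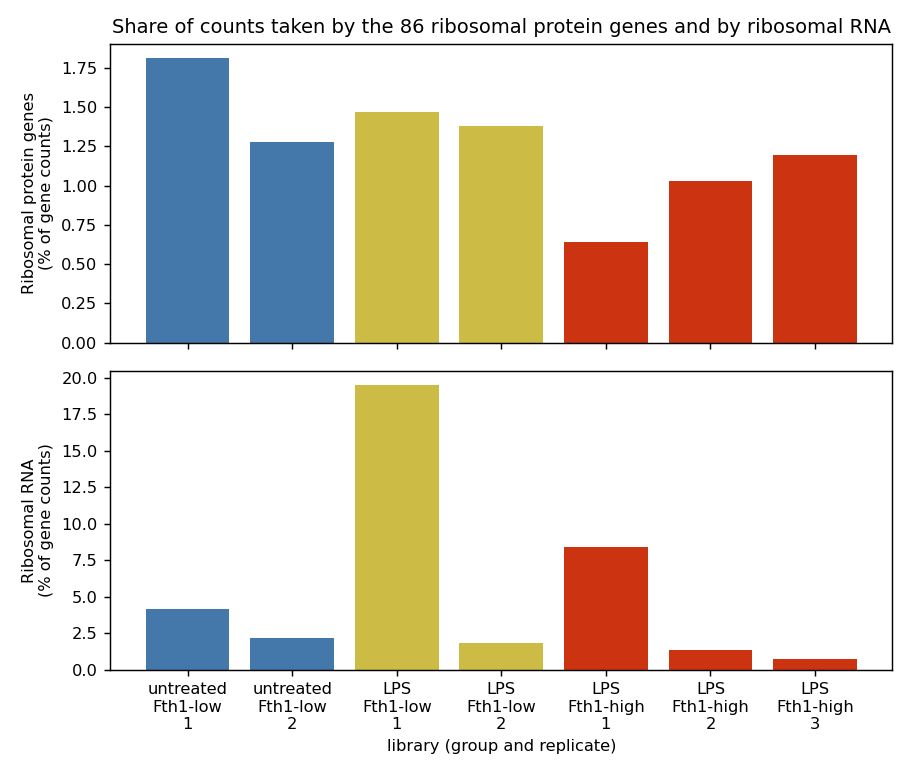
Share of gene counts (percent, vertical axes) taken by the 86 ribosomal protein genes (top) and by ribosomal RNA (bottom) in each of the 7 libraries, 1 bar per library, coloured by group. The 3 LPS Fth1-high libraries hold the lowest ribosomal protein shares, from 0.641% to 1.19%, and the library with the lowest share also has 8.42% ribosomal RNA.

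The pool was uneven. The 10 most abundant members by mean CPM supplied 46.3% of the members' sum and the 20 least abundant 1.69%. Per kilobase of mRNA, Rpl8, a protein at the peptidyl transferase centre, was the highest at 847 CPM per kb, followed by Rplp1 of the stalk at 785. The small subunit genes Rps15, at 777 CPM per kb, and Rps9, at 692, were also among the 5 highest. The lowest was Rpl39, whose small protein lines the exit tunnel, at 1.13 CPM per kb, with no count in LPS Fth1-low replicate 1. These levels depend on how reads that fit several copies were counted, which is not given in the sources used here. Values per kilobase also depend on the transcript chosen for each gene. The one used was 5130 nucleotides for Rps15a, 3706 for Rps20 and 1908 for Rps3, against a median of 777.5. Rps3 had more CPM than Rpl8 (777 against 721), so the ranking could change with another transcript.

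Within a group the genes moved almost as a block from library to library. LPS Fth1-high replicate 1 was below replicate 3 for 82 of 86 members, by a median of 0.85 on the log2(CPM + 1) scale, and below replicate 2 for 83, by a median of 0.64. Untreated replicate 1 was above replicate 2 for 82 members, by a median of 0.45. These medians are of the size of the differences between groups given below. LPS Fth1-low replicate 1 was above replicate 2 for 63 members, with a median of 0.53 and a spread between quartiles of 0.96, against 0.16 to 0.36 for the other pairs. Over all 13665 genes tested, LPS Fth1-high replicate 1 was below replicate 3 for 51.2%, and untreated replicate 1 was above replicate 2 for 54.6%.

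For the untreated and LPS Fth1-high replicates, but not for the LPS Fth1-low pair, such shifts went along with transcript length over all genes. Members have short mRNAs, with a median of 777.5 nucleotides against 2427 for protein-coding genes. Over 13415 tested genes with a gene model, the log2 difference of LPS Fth1-high replicate 1 from replicate 3 had a Spearman correlation with mRNA length of 0.42, that of untreated replicate 1 from replicate 2 of -0.37, and that of LPS Fth1-low replicate 1 from replicate 2 of 0.06 (across genes, which are not independent and share the libraries). Among the 86 members alone the same correlations were 0.04, 0.07 and -0.30. The mitochondrial ribosomal proteins, with a median mRNA of 1280 nucleotides, shifted as the members did in 2 of the 3 groups: 74 of 77 were lower in LPS Fth1-high replicate 1 than in replicate 3 (median -0.38), and 75 of 77 were higher in untreated replicate 1 than in replicate 2 (median 0.42). In the LPS Fth1-low pair they did not, with 33 of 77 higher in replicate 1 (median -0.08). The part of length in the differences between groups was not tested.

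**Figure D2:**
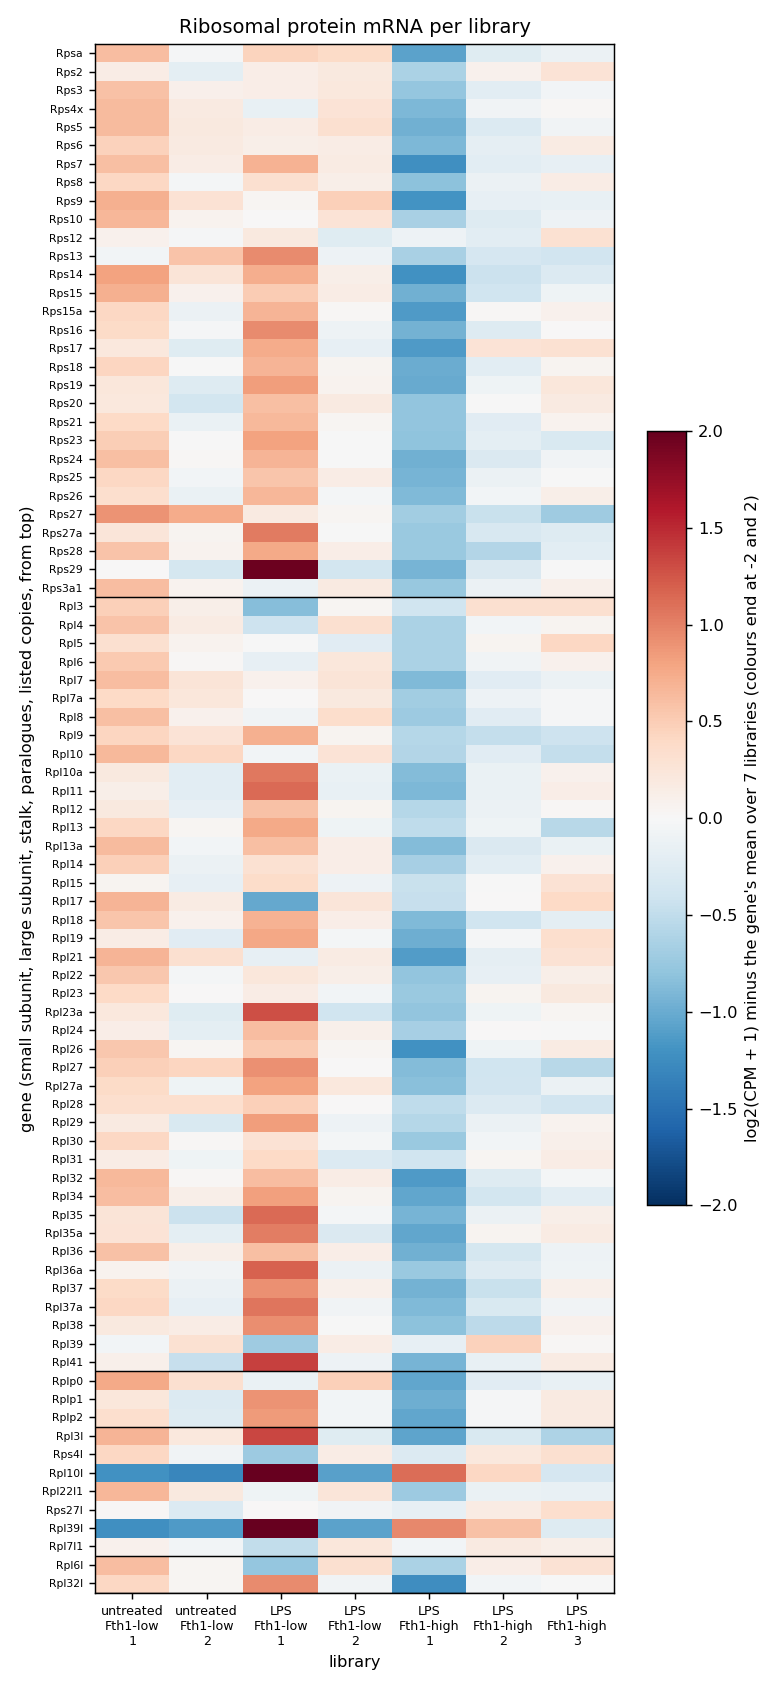
Ribosomal protein mRNA in each library: every row is 1 of 84 of the 86 genes, ordered by subunit, and every column 1 of the 7 libraries. Colour is log2(CPM + 1) minus the gene's mean over the 7 libraries, red above and blue below. The column of LPS Fth1-high replicate 1 is blue for nearly all genes, while Rpl10l and Rpl39l run the other way and peak in LPS Fth1-low replicate 1.

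The first comparison set Fth1-high against Fth1-low cells after LPS. The members tended to be lower in Fth1-high cells without any single gene passing the test. The median member differed by a log2 value of -0.61, 1.53-fold lower, where the median of all genes tested was 0.04, and 76 of 86 members were below 0 against 47.4% of all genes. By edgeR's quasi-likelihood test with Benjamini-Hochberg adjustment, 0 of 86 were called in either direction at an adjusted p below 0.05, against 8.25% of all genes tested (3.68% higher and 4.57% lower). At an unadjusted p below 0.05, 24 were lower and 0 higher, against 10.8% lower of all genes, and the DESeq2 Wald test called 9 lower. The share of all genes that DESeq2 called is not given here. Every Fth1-high library lay below both LPS Fth1-low libraries for 38 of 86 members, or 44.2%, against 17.1% of all genes tested, and 0 members lay above them against 24.2%.

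Small and large subunit genes differed by similar amounts. The median was -0.67 for the 31 small subunit genes, -0.58 for the 43 large subunit genes, -0.63 for the 3 stalk genes and -0.32 for the 7 paralogues. The spread between quartiles was 0.42 for the members, while for all genes it was 0.86 and for the 4977 genes in the middle quartiles of the members' mean CPM 0.58. Fitted values were lowest for Rpl3l, the muscle paralogue of Rpl3 (-1.57, adjusted p = 0.32), and for Rps29, a zinc-binding small subunit protein (-1.45, adjusted p = 0.28). The highest values were 0.37 for Rpl3, 0.20 for Rpl39 and 0.18 for Rps27l, none of them called.

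That median depended on the 2 libraries rich in ribosomal RNA. Without LPS Fth1-low replicate 1 and LPS Fth1-high replicate 1 it was -0.12, and leaving out either alone gave -0.38 and -0.40. A fit without LPS Fth1-low replicate 1 has only replicate 2 in that group, so the value of -0.12 rests on that library. The part of RNA quality in the difference was not tested. Summed dendritic cell markers (7 genes) differed by gate too, at 72.0 to 104 CPM in the 4 Fth1-low and 11.3 to 17.9 in the Fth1-high libraries. Of the 7, 0 were at 0 in every library, and not all followed the sum. Cd209a was at 49.5 and 57.4 CPM in untreated but already at 3.35 and 4.32 in LPS Fth1-low libraries. Ccr7, most of the Fth1-high sums at 8.09 to 12.7 CPM, overlapped with untreated (11.9 and 2.80) and not with LPS Fth1-low libraries (33.5 and 20.2). NK cell markers (7 genes) summed to 17.0 to 26.3 CPM in Fth1-low and 4.43 to 10.9 in Fth1-high libraries. Neutrophil markers (10 genes) summed to 412 to 698 and 375 to 408. Neither sum overlapped, and 0 genes were at 0 in every library. The neutrophil sums were mostly Csf3r, which overlapped, at 299 to 497 CPM in Fth1-low and 272 to 330 in Fth1-high libraries. Camp was higher in Fth1-high (0.863 to 1.18 CPM) than in LPS Fth1-low libraries (0 and 0.360). T cell markers (10 genes) summed to 28.1 to 83.7 CPM in Fth1-low and 43.8 to 53.3 in Fth1-high libraries. B cell markers (7 genes) summed to 20.3 to 117 and 19.4 to 58.7, with overlap in both lists. Epithelial markers (8 genes) summed to 784 CPM in untreated replicate 1, 3.82 in replicate 2 and 14.1 to 124 after LPS. Endothelial markers (7 genes) summed to 340, 70.2 and 35.5 to 174 CPM in the same order. Alveolar macrophage markers (8 genes), mostly Chil3, summed to 1946 and 1744 CPM in untreated, 3315 and 5923 in LPS Fth1-low and 486 to 1893 in LPS Fth1-high libraries. Not all followed that sum. Ear2 was at 447 and 257 CPM in untreated, 109 and 89.0 in LPS Fth1-low and 4.39 to 10.9 in LPS Fth1-high libraries. The part of other cell types in the result was not tested.

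**Figure D3:**
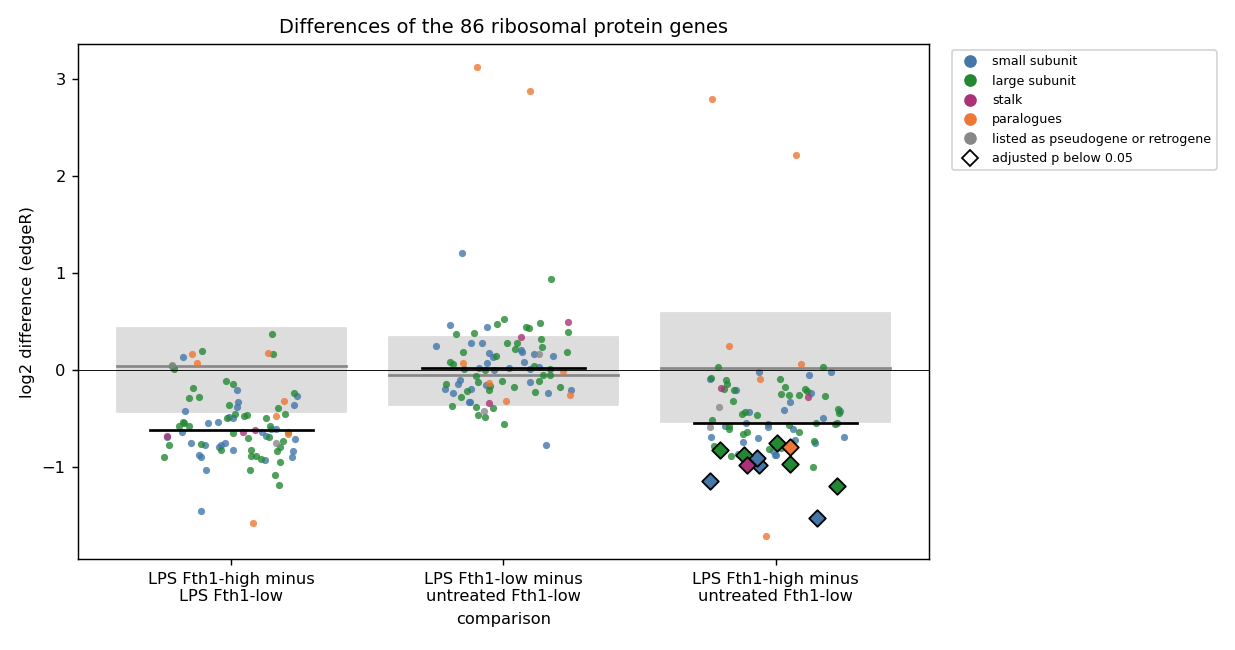
Fitted log2 differences (edgeR, vertical axis) of the 86 genes in the 3 comparisons, 1 point per gene coloured by class, with black bars at the members' medians (-0.61, 0.02 and -0.55). The grey band spans the middle quartiles of all 13665 genes tested around their median, and diamonds mark the 11 genes with an adjusted p below 0.05, all in the third comparison.

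No member was called different between LPS and untreated Fth1-low cells. The median member differed from untreated Fth1-low cells by 0.02, against -0.05 for all genes, with 39 of 86 below 0 against 54.2% of all genes. By edgeR's quasi-likelihood test 0 of 86 were called after Benjamini-Hochberg adjustment, against 3.62% of all genes tested (2.99% higher and 0.629% lower). At an unadjusted p below 0.05, 2 were higher against 7.81% of all genes and 1 was lower against 5.58%. The DESeq2 Wald test called 2 higher, Rpl10l and Rpl39l, and the share of all genes it called is not given here. The median moved between -0.15 and 0.33 when single libraries were left out, so shifts of this size could not be told from differences between libraries. The libraries did not overlap for 7 members lower, or 8.14%, against 23.2% of all genes tested, and for 2 higher, or 2.33%, against 16.3%. The lowest fitted values were -0.77 for Rps27, -0.56 for Rpl3 and -0.48 for Rpl17, a large subunit protein at the tunnel exit. The highest, apart from Rpl39l and Rpl10l, was 1.21 for Rps29, at 26.8 and 4.53 CPM after LPS against 6.12 and 4.57 in untreated libraries, so that only replicate 1 was high.

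Between LPS Fth1-high and untreated Fth1-low cells, which differ in both treatment and gate, 11 members were called lower and 0 higher. That is 12.8% of 86, near the 11.9% of all genes tested that were called lower, while 12.4% of all genes were called higher. The members' median was -0.55, or 1.46-fold lower, against 0.03 for all genes, and 80 of 86 were below 0 against 48.6%. All 3 Fth1-high libraries lay below both untreated libraries for 40 members (46.5%, against 27.8% of all genes), above them for 2 (against 30.3%), and below all 4 Fth1-low libraries for 31 (36.0%, against 12.9%). The count depended on single libraries: 1 member was called lower without untreated replicate 1, and 3 without untreated replicate 2, without LPS Fth1-high replicate 1 or without LPS Fth1-high replicate 2. Other tools called more members lower, 22 by the DESeq2 Wald test and 20 by limma-voom. For these fits, and for those with a library left out, the share of all genes called is not given here. Their counts therefore cannot be set against it. This comparison and the first share the Fth1-high libraries.

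Among small subunit genes, 4 of 31 were called lower, among them Rps27, Rps14 and Rps28. Rps14, whose loss in the human 5q- syndrome impairs red cell formation, was at 621 and 425 CPM in untreated libraries, 586 and 386 in LPS Fth1-low and 152, 264 and 293 in LPS Fth1-high libraries. Its Fth1-high libraries lay below all 4 others (log2 -1.15 ± 0.32 SE against untreated, adjusted p = 0.027). Rps28, at 18.8 and 13.1 CPM in untreated and 6.97 to 10.6 in Fth1-high libraries, fell by 0.91 (adjusted p = 0.049).

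Rps27 had the smallest adjusted p of all members in this comparison. It encodes eS27, a zinc-binding protein of the small subunit, and lies on chromosome 3 from 90212522 to 90213651 on the minus strand (mm10). It stood at 30.9 and 27.9 CPM in untreated Fth1-low, 18.4 and 16.7 in LPS Fth1-low and 9.55, 11.6 and 9.51 in LPS Fth1-high libraries. The 3 groups did not overlap, with LPS Fth1-low cells between the others. LPS Fth1-high cells were 2.87-fold below untreated cells (log2 -1.52 ± 0.20 SE, adjusted p = 4.7e-04). The call held in each of the 7 fits with a library left out. The steps of -0.75 between the LPS gates (adjusted p = 0.074) and -0.77 between Fth1-low groups (adjusted p = 0.16) were not called.

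The level of Rps27 is uncertain because of a near-identical retrocopy. Of the 288 windows of 58 bases (the read length) along its 345-nucleotide mRNA, 284 (98.6%) occur exactly in another annotated gene, and Rps27rt, the retrocopy, holds 284 of them. Rps27rt was at 539 and 356 CPM in untreated, 723 and 305 in LPS Fth1-low and 162, 281 and 303 in LPS Fth1-high libraries. It did not show the Rps27 order, and LPS Fth1-high cells were not called different from untreated cells (-0.85 ± 0.39 SE, adjusted p = 0.15). With the counts of annotated copies added to each gene, the value for Rps27 was -0.88 with an adjusted p of 0.13, so the call was lost.

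Rps27l, the paralogue that p53 can induce, did not have the lower values of Rps27. It stood at 45.7 and 36.9 CPM in untreated, 45.2 and 42.7 in LPS Fth1-low and 39.9, 50.4 and 57.3 in LPS Fth1-high libraries, and its groups overlapped in every comparison (0.25 ± 0.21 SE against untreated, adjusted p = 0.43). The ratio of Rps27l to Rps27 counts was 1.48 and 1.32 in untreated, 2.45 and 2.55 in LPS Fth1-low and 4.18, 4.35 and 6.02 in LPS Fth1-high libraries, without overlap between groups. With Rps27rt added to Rps27 the ratio was 0.0802 and 0.0963, then 0.0609 and 0.133, then 0.233, 0.173 and 0.183, so the Fth1-high libraries still lay above all others while the Fth1-low groups overlapped. This ratio was chosen after its values were seen and was not tested.

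**Figure D4:**
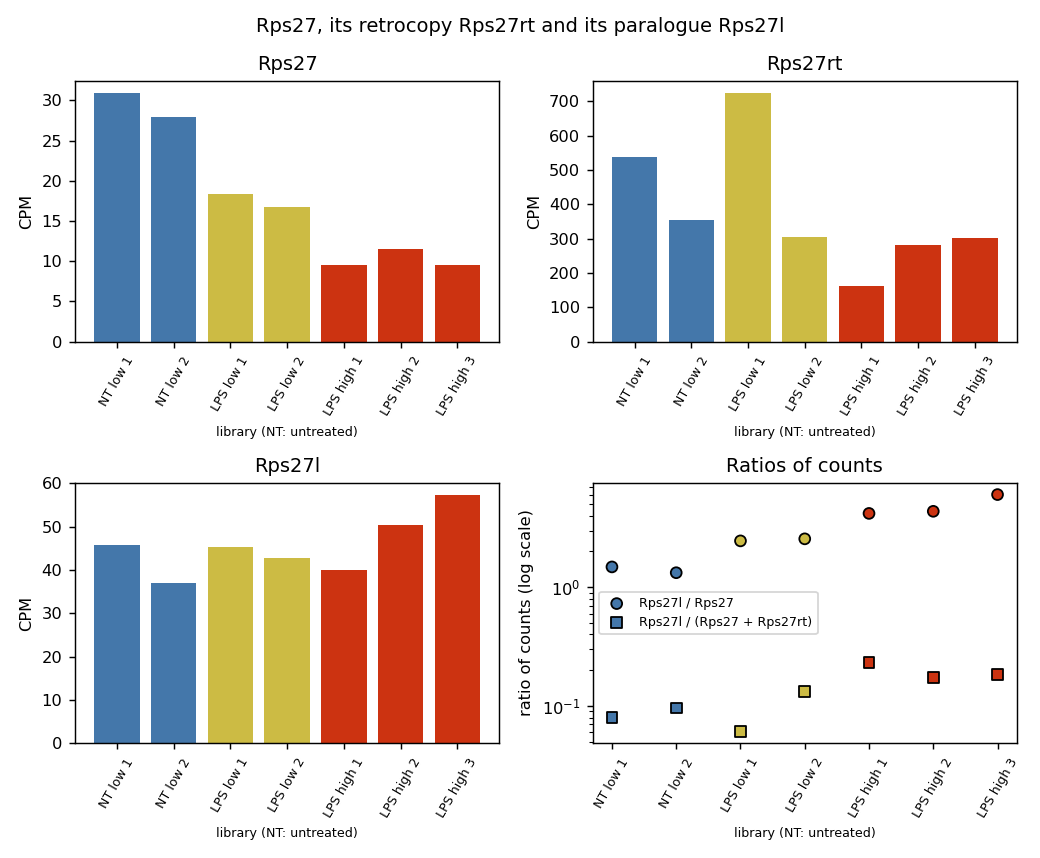
Rps27, its retrocopy Rps27rt and its paralogue Rps27l in CPM (bars from 0, 1 bar per library) and the count ratios of Rps27l to Rps27 and to Rps27 plus Rps27rt (log axis, 1 point per library). Rps27 lies at 3 separate levels between 30.9 and 9.51 CPM, Rps27rt does not follow that order, and the ratio to both is highest in the 3 LPS Fth1-high libraries.

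Among large subunit genes, 5 of 43 were called lower in LPS Fth1-high than in untreated cells: Rpl10, Rpl9, Rpl28, Rpl27 and Rpl7. Rpl10, which joins the subunit last and shapes its peptidyl transferase centre, was at 104 and 88.3 CPM in untreated, 63.6 and 79.9 in LPS Fth1-low and 43.7, 56.6 and 47.4 in LPS Fth1-high libraries. The groups did not overlap in any comparison, and the difference was -0.97 ± 0.20 SE (adjusted p = 0.0064). Rpl9 was at 33.0 and 29.5 CPM in untreated and 40.2 and 25.4 in LPS Fth1-low libraries, and its 3 Fth1-high libraries were close together at 16.1, 17.1 and 18.0 (-0.88 ± 0.21 SE, adjusted p = 0.014). Rpl28 fell by 0.75 (adjusted p = 0.022), Rpl27 by 1.20 (adjusted p = 0.029) and Rpl7 by 0.82 (adjusted p = 0.044). Rpl27 was a low member, at 3.65 to 5.45 CPM in Fth1-high and 10.8 and 10.4 in untreated libraries.

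Of the 3 stalk genes, 1 was called lower in LPS Fth1-high than in untreated cells. Rplp0 anchors the stalk, and Rplp1 and Rplp2 form the pairs on it that recruit elongation factors. Rplp0 was at 1373 and 1018 CPM in untreated, 747 and 1133 in LPS Fth1-low and 395, 695 and 735 in LPS Fth1-high libraries, below all others in the last group, and fell by 0.97 against untreated cells (adjusted p = 0.049). Rplp1 was at 431 and 302 CPM in untreated, 688 and 355 in LPS Fth1-low and 187, 362 and 417 in LPS Fth1-high libraries. Rplp2 was at 136 and 89.9, then 194 and 103, then 51.7, 106 and 122 CPM. Both overlapped between all groups, with -0.19 (adjusted p = 0.76) and -0.28 (adjusted p = 0.65) against untreated cells, and whether they differ from Rplp0 was not tested.

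The 7 paralogues spread most widely, from -1.71 to 2.80 against untreated cells. Rpl22l1, the paralogue of Rpl22, was the only paralogue called lower (-0.79 ± 0.25 SE, adjusted p = 0.044), at 37.3 and 26.5 CPM in untreated, 21.8 and 27.4 in LPS Fth1-low and 13.6 to 20.9 in LPS Fth1-high libraries. Rpl3l, at 3.91 and 2.52 CPM in untreated and 0.464 to 1.46 in Fth1-high libraries, had -1.71 ± 0.68 SE (adjusted p = 0.10). Rpl7l1, a nucleolar relative of Rpl7, and Rps4l, the copy of Rps4x, were not called (0.06, adjusted p = 0.86, and -0.09, adjusted p = 0.87). Their ratios to Rpl7 and Rps4x were above those of all 4 Fth1-low libraries in each Fth1-high library, at 0.166 to 0.251 against 0.0942 to 0.139 and at 0.0850 to 0.105 against 0.0429 to 0.0642, ratios also chosen after their values were seen.

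Rpl10l and Rpl39l were the members with the highest fitted values against untreated cells. They are autosomal replacements, known from male germ cells, for the X-linked Rpl10 and Rpl39. Rpl10l was at 1.96 and 1.77 CPM in untreated, 35.2 and 2.21 in LPS Fth1-low and 13.8, 8.09 and 4.42 in LPS Fth1-high libraries. Rpl39l was at 0.541 and 0.653, then 15.1 and 0.720, then 6.04, 4.43 and 2.01 CPM. All Fth1-high libraries lay above both untreated libraries and above LPS Fth1-low replicate 2, and LPS Fth1-low replicate 1 lay above every other library. Against untreated cells the values were 2.22 ± 1.01 SE (adjusted p = 0.16) for Rpl10l and 2.80 ± 1.09 SE (adjusted p = 0.097) for Rpl39l by edgeR's quasi-likelihood test.

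The call on these 2 genes depended on the libraries fitted. Leaving either LPS Fth1-low library, replicate 1 or replicate 2, out of the fit moved both to a call higher against untreated cells. Each such fit leaves 1 library in that group. The order of libraries in both genes followed that of Malat1 and Rn7sk in part: LPS Fth1-low replicate 1 and LPS Fth1-high replicate 1 were first and second in all 4, but LPS Fth1-high replicates 2 and 3 were the lowest libraries for Malat1 and Rn7sk and not for Rpl10l and Rpl39l. Without both libraries rich in ribosomal RNA, Rpl10l was higher by 1.76 (adjusted p = 0.025) and Rpl39l by 2.46 (adjusted p = 0.028). Of their windows, 4.45% for Rpl10l and 0% for Rpl39l occur in another annotated gene.

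**Figure D5:**
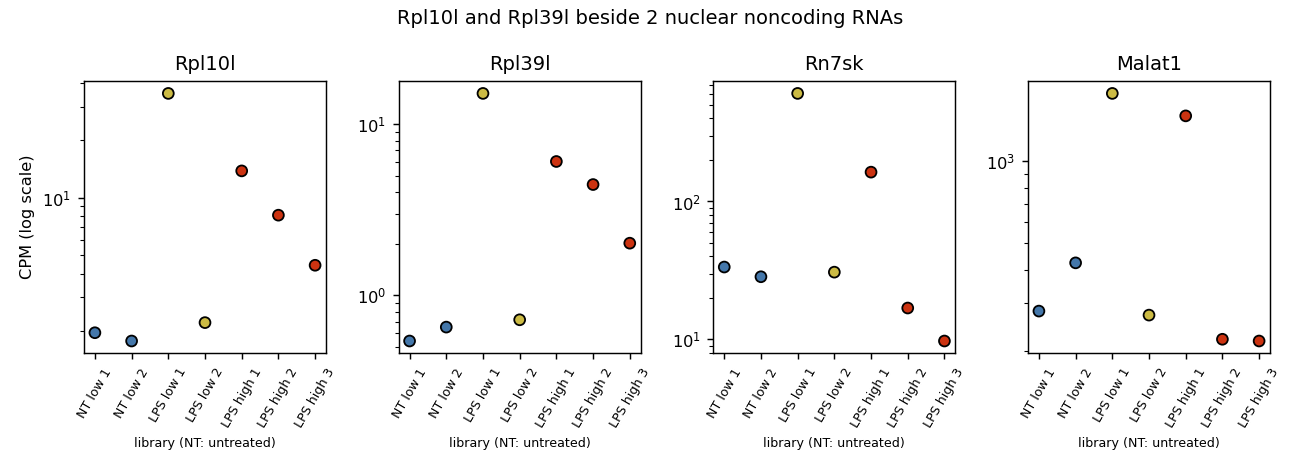
CPM (log axes) of Rpl10l, Rpl39l and the nuclear RNAs Rn7sk and Malat1 in each of the 7 libraries, 1 point per library coloured by group. All 4 are highest in LPS Fth1-low replicate 1, while LPS Fth1-high replicates 2 and 3 lie above the untreated libraries only for Rpl10l (8.09 and 4.42 CPM) and Rpl39l (4.43 and 2.01 CPM).

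Sequence shared with copies is common in this family. Along the members' mRNAs, a median of 49.0% of 58-base windows occur exactly in another annotated gene, and for 42 of 86 the share is 50% or more. The share depends on the transcript chosen. The long ones used for Rps15a and Rps20 had 271 of 5073 windows shared (5.34%) and 255 of 3649 (6.99%). The median difference between the LPS gates was -0.51 for the 18 members under 20% shared, -0.72 for the 26 from 20% to under 50%, and -0.58 for the 42 at 50% or more. Against untreated cells it was -0.48, -0.55 and -0.56, with 0, 5 and 6 genes called lower. Of the 11 called genes 6 share 50% or more, so the levels of Rpl9 (93.3%), Rpl10 (92.1%), Rpl27 (63.6%), Rpl22l1 (55.0%) and Rps28 (50.2%) are uncertain as well as that of Rps27. Rps14, Rps28, Rpl28 and Rpl22l1 each overlap an annotated gene on the opposite strand, and the strand setting of the counting is unknown. Sorted by the pyrimidine run at the start, between the LPS gates the median difference was -0.60 for the 33 subunit and stalk genes with a run and -0.73 for the 24 without.

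Ribosomal proteins under other symbols also had values below 0 in Fth1-high cells. The 4 on the list, among them Fau, Rack1 and Rpl36al, had 0 called. Their median was -0.75 between the LPS gates, 0.36 for LPS in Fth1-low cells and -0.50 between LPS Fth1-high and untreated cells. Rack1, the signalling scaffold on the small subunit, was the nearest to a call (-0.77 against untreated cells, adjusted p = 0.058). Another 18 translation genes with TOP mRNAs had medians of -0.08, -0.31 and -0.43 in the 3 comparisons, and 2 were called lower against untreated cells, a share near the 11.9% of all genes: Eif3f, an initiation factor subunit (-0.97, adjusted p = 0.018), and Eef1b2, an elongation factor subunit (-0.93, adjusted p = 0.029).

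Mitochondrial ribosomal proteins did not share the lower values. Of 77 tested, 4 were called higher and 2 lower in LPS Fth1-high than in untreated cells, against 12.4% and 11.9% of all genes, with a median of 0.26. Between the LPS gates 1 was higher and 1 lower, against 3.68% and 4.57%, with a median of 0.08. Mrpl38 was higher in both comparisons (1.44, adjusted p = 0.0011, and 1.00, adjusted p = 0.033) and Mrpl33 lower in both (-1.77, adjusted p = 7.8e-04, and -1.64, adjusted p = 0.0053). These 2 lists share the libraries, and the difference between their medians was not tested.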

How the data were processed

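Polyadenylated RNA of 7 libraries was made into stranded libraries from 25 ng each (15 PCR cycles, paired 58-base reads), per the labels. The deposited values are whole-number counts per gene, and the submitters' processing notes name DRAGEN, DESeq2 and mm10. Which versions, annotation and strand setting were used, and how reads that fit several places were handled, is not given in the sources used here. Of 26130 genes, 6880 had no count, and 0 sample columns were unused.

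Analysis of the counts used edgeR 4.0.16 in R 4.3.3: filterByExpr (13665 genes tested), TMM scaling and a robust quasi-likelihood fit of all 7 libraries with 3 groups (residual df 4), tested two-sided with Benjamini-Hochberg adjustment over all genes tested and called below 0.05. Standard errors are the log2 difference over the square root of F. The procedure was tested on simulated data. Alternatives were other scalings, filters and tests (DESeq2 1.42.0, limma 3.58.1), 2-group fits, each library left out, the replicate number as a block, thinned libraries and, added after seeing the data, copies added to their gene and the 2 libraries rich in ribosomal RNA left out. Gene models, mRNA lengths and shared windows are from GENCODE vM21 (GRCm38, mm10), where all 86 symbols matched, with the shortest best-supported transcript per gene. Counts were not corrected for 24 members that overlap a gene on the opposite strand or 6 on the same strand.

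The members, lists, tests and alternatives were chosen with earlier results of these data known. Named genes are members called in a comparison, the 3 highest and 3 lowest differences in each, the 5 highest per kilobase, the paralogues, the stalk, and called genes of related lists. Some genes this rule gives are not reported here by name.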

Additional observations from a re-analysis of the deposited data

How the results depend on the processing

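The members' median kept its direction between the LPS gates and against untreated cells under all 20 alternatives. It moved by more than 0.375 only where both libraries rich in ribosomal RNA were left out, to -0.12 between the LPS gates. That limit is the SD within groups of the log2 median member CPM per library, and not an error of the difference. Smaller changes, with 1 of those libraries left out, are given above. Counts of calls moved more. The shares of all genes called under the alternatives are not given here, so these counts cannot be set against them. Between the LPS gates 0 were called lower, but 9 by the DESeq2 Wald test, 9 with libraries thinned to equal depth and 1 without the low-count filter, and with single libraries left out from 0 to 4. For LPS in Fth1-low cells 2 were called higher by DESeq2, and from 0 to 2 with single libraries left out. Against untreated cells the 11 calls lower became 22 by DESeq2, 20 by limma-voom, 19 without the filter, 17 with at least 10 counts in every library of a group, and from 1 to 14 with single libraries left out. There 2 were called higher, Rpl10l and Rpl39l, by DESeq2, in a fit of only those 2 groups and without both libraries rich in ribosomal RNA, and from 0 to 2 with single libraries left out. The share of LPS Fth1-low cells was 1.65% with ribosomal RNA and mitochondrial genes left out and 1.63% with pseudogene copies counted as members.

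Replicate numbers recur in the groups, but the labels do not say that they pair libraries. Deviations of log2(CPM + 1) from the group mean, over all genes tested, had correlations of 9.0e-04 to 0.38 between same-numbered libraries. With the replicate number as a block, 12 members were called lower between the LPS gates, and 24 lower and 2 higher against untreated cells. The share of all genes called in that fit is not given here.

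Depth limits the LPS Fth1-low group, where 11 members had under 10 counts in replicate 1. The median standard error of a member's difference was 0.32 on the log2 scale, close to the differences themselves for many genes.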

Other observations

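Counts below set the LPS Fth1-high group against the untreated one, which differ in treatment and gate, unless another pair is named, and of all genes tested 12.4% were called higher and 11.9% lower there. Of 51 ribosome biogenesis genes, 7 were called higher and 1 lower in LPS Fth1-high than in untreated Fth1-low cells by edgeR's quasi-likelihood test, with a median of 0.10, so the share called higher was near that of all genes. Heatr1, a nucleolar factor for early processing of the small subunit, was at 42.6 and 59.8 CPM in untreated and 85.4 to 120 in Fth1-high libraries (0.97, adjusted p = 0.014), and the groups did not overlap. Noc4l, of the same pathway, was higher both there (0.77, adjusted p = 0.019) and in LPS Fth1-low against untreated cells (1.28, adjusted p = 0.014), while Emg1, an 18S ribosomal RNA methyltransferase, was lower (-0.61, adjusted p = 0.039). Of 15 RNA polymerase I genes 0 were called higher and 3 lower, among them Ubtf, the factor that opens ribosomal DNA for transcription, at 155 and 158 CPM in untreated and 83.3 to 97.4 in Fth1-high libraries (-0.81, adjusted p = 0.011). None of the 9 escort genes was called in any comparison.

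Regulators of TOP mRNA translation were mixed. Of 30 mTORC1 genes, 3 were called higher and 3 lower in LPS Fth1-high than in untreated cells, in each direction a smaller share than of all genes. Larp1, which binds TOP mRNAs, was at 165 and 225 CPM in untreated, 316 and 309 in LPS Fth1-low and 304 to 360 in LPS Fth1-high libraries (0.73, adjusted p = 0.032). Eif4ebp2, an inhibitor of the cap-binding factor, was lower (-0.97, adjusted p = 0.0034). Of 30 initiation factors 1 was higher and 3 lower, also smaller shares. Of 13 snoRNA host genes, Snhg15 was lower than in untreated cells (-1.47, adjusted p = 0.0026) and than in LPS Fth1-low cells (-1.12, adjusted p = 0.041). In the MYC network (10 tested), Mxd1, an antagonist of MYC, stood at 52.2 and 77.4 CPM in untreated, 278 and 319 in LPS Fth1-low and 129 to 150 in LPS Fth1-high libraries, without overlap. It was higher after LPS in Fth1-low cells (2.21, adjusted p = 0.0011) and lower in Fth1-high than in LPS Fth1-low cells (-1.09, adjusted p = 0.015).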
